A study of Mus musculus with 4 samples.

Results

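Among 17295 autosomal CpG clusters, 355 were methylated at 55% or more in dopaminergic (DA) neurons made from induced pluripotent stem cells (iPSC-DA neurons) and at under 20% in primary mesodiencephalic DA neurons (mdDA neurons). A CpG cluster is a run of at least 10 cytosine positions that each had 5 or more calls in the iPSC-DA and the mdDA library, with less than 100 bp between neighbours. Its methylation level is the percent of methylated calls among all calls at its positions, and in other libraries only at positions with 5 or more calls. They were chosen by these measured levels alone, so the difference between the DA libraries is a description. The 355 clusters made up 355 of the 15767 clusters that were under 20% in mdDA neurons. The other low clusters served as the comparison. In 4882 of them, called moderately methylated here, the level in iPSC-DA neurons was 20% to under 55%, and in 10530 it was under 20% in both DA libraries.

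The question of the study was how closely DA neurons made in vitro match their embryonic counterparts. Reduced representation bisulfite sequencing (RRBS), which cuts DNA with MspI at CCGG and reads the CpG-rich ends of the fragments, was done on 1 library of each of 4 cell populations of the mouse. The iPSCs carried Pitx3 Gfp/+, a reporter in the locus of a DA neuron transcription factor, and came from embryonic fibroblasts reprogrammed by retroviruses. The iPSC-DA neurons carried the same allele, were grown on MS5 stromal cells with Noggin and a TGF-β inhibitor, then SHH, FGF8, BDNF, ascorbic acid, GDNF and cyclic AMP in turn, and were sorted for PITX3-GFP after 4 weeks of differentiation. The mdDA neurons, also Pitx3 Gfp/+, were sorted for PITX3-GFP from embryos at E14.5. The precursors were of another reporter line, Nestin Gfp/+, and were collected after 14 days of the same protocol, so that stage and line cannot be told apart. Their label reads neurons, while the protocol names NESTIN-GFP-positive precursors, and that name is used here. Methylation calls hold no expression markers, so the identity of the cells was not checked. All 4 populations carried a GFP allele.

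Most CpGs of the mouse genome are methylated, whereas CpG islands, the CpG-rich stretches at many promoters, are usually free of methylation. De novo methyltransferases can methylate islands during differentiation and in culture, and dense methylation of a promoter island is associated with silencing of its gene. The cells of the blastocyst and pluripotent lines carry less methylation than neural cells, and a level between the extremes in a population of cells can come from a mixture of cells or alleles.

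With 1 library per population there was no spread between replicates to compare a difference with. Fisher's exact tests below compare libraries and not conditions, and calls of the same read or PCR copies of a molecule are not independent. The Wilson 95% intervals cover counting error only. The libraries held 68545752 calls in iPSCs, 31419979 in NESTIN-GFP precursors, 72993474 in mdDA neurons and 79648099 in iPSC-DA neurons. A median of 1028, 276, 1062 and 1142 calls, in that order, stood behind the level of each of the 355 clusters. A precursor level needed 5 positions or more with 5 calls each, which left 338 clusters with a value and 17 without. Positions with fewer calls in precursors or iPSCs did not enter the level there. The levels of a cluster in different libraries can therefore rest on partly different positions.

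Of the 355 clusters, 29 could be placed at a promoter by matching the spacing of their positions to the CpGs of RefSeq promoter sequences (GRCm38.p6). For 5 genes the matched promoter DNA is shown. Igf2r had 25 positions in the matched window. Atoh1 and Foxn4 had 10 each, Inhbb 13 and Fgfr4 14, and these placements rest on the chromosome and the distance to a neighbouring match. The 5 genes were chosen, after their values were seen, to cover a nearly full level (Atoh1), levels that differ along the cluster (Igf2r), 2 levels in neighbouring stretches (Fgfr4), a level close to the 55% limit (Foxn4) and an even level with low precursor methylation (Inhbb). Each line reads 5′ to 3′ on the strand of the gene and ends before its start site, and the capitals mark CpGs with calls in the cluster.
Atoh1, chromosome 6, plus strand, bases -62 to -9 from the start site: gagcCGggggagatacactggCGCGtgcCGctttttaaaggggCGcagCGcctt
Igf2r, chromosome 17, minus strand, bases -134 to -1: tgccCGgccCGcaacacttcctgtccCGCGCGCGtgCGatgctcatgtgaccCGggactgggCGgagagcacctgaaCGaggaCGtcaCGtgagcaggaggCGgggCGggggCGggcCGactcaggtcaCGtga
Fgfr4, chromosome 13, plus strand, bases -181 to -10: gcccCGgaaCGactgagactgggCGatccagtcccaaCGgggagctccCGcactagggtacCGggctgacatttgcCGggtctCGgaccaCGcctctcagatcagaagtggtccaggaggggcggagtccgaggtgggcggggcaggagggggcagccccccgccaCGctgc
Foxn4, chromosome 5, minus strand, bases -217 to -80: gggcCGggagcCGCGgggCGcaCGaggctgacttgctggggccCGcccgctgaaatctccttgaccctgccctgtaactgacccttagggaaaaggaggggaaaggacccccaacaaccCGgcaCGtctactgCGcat
Inhbb, chromosome 1, minus strand, bases -119 to -63: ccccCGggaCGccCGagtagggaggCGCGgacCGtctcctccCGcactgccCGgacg
The letters CCGG, the MspI site and a palindrome that reads alike on both strands, occurred in 52.8% of all 32851 promoter windows of 300 bases.

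The 355 clusters were low in iPSCs, spread over nearly the whole scale in precursors, and low again in mdDA neurons. In iPSCs the lowest level was 1.81%, the median 6.89% and the highest 74.0%. In precursors the lowest level was 0%, the median 35.7% and the highest 98.3%. In iPSC-DA neurons, where the rule set a minimum of 55%, the median was 61.5% and the highest level 96.1%. In mdDA neurons the levels ran from 1.88% to 19.9% with a median of 8.45%. Moderately methylated clusters had medians of 5.00% in iPSCs and 16.3% in precursors, and clusters low in both DA libraries had medians of 4.29% and 4.75%. Of the 355 clusters, 144 were at 55% to under 60%, 192 at 60% to under 80% and 19 at 80% or more. The 41 clusters just inside the limit, from 55% to under 56%, had a median of 36.6% in precursors, and the 42 just outside it, from 54% to under 55%, had a median of 26.5%. At the other limit, 5 clusters were at 19% to under 20% in mdDA neurons, and 3 clusters at 20% to under 21% there stayed out.

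**Figure D1:**
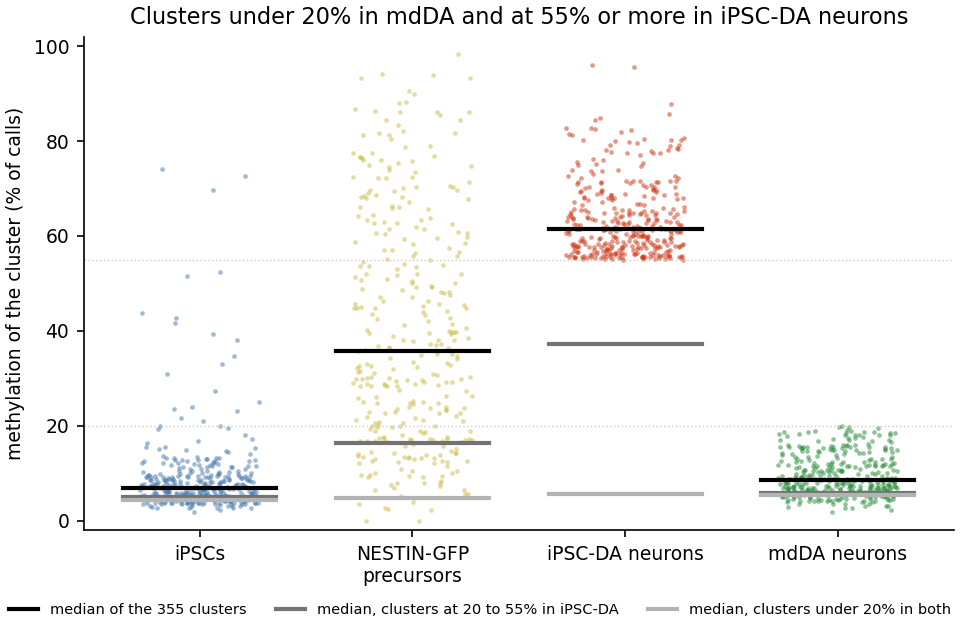
Methylation levels of the 355 clusters in each library, in percent of calls, with 1 point per cluster and dotted lines at the limits of 20% and 55%. Black bars are the medians of the 355 clusters (6.89%, 35.7%, 61.5% and 8.45%), and grey bars are the medians of moderately methylated clusters and of clusters low in both DA libraries.

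In precursors 327 of the 338 clusters with a value were above their level in iPSCs, and 11 were not. The rule used neither of these libraries. A gain was called where Fisher's exact test gave a Benjamini-Hochberg adjusted p under 0.05 over all clusters and the difference was at least 20 percentage points. It was called in 215 of the 338 clusters (63.6%, 95% CI 58.4 to 68.6), against 21.1% of all clusters tested. Among moderately methylated clusters it was called in 26.3%, and among clusters low in both DA libraries in 8.25%. The median difference between precursors and iPSCs was 28.4 points over the 338 clusters, 11.1 points over moderately methylated clusters and 0.489 points over clusters low in both. A fall was called in 0 of the 338, against 0.00611% of all clusters. Small clusters have fewer calls and more of them were called in the comparison sets, but the order of the shares was the same at each size. With 10 to 14 positions a gain was called in 63.5% of the strongly hypermethylated, 44.2% of the moderately methylated and 20.5% of the clusters low in both. With 15 to 24 positions the shares were 69.0%, 31.3% and 12.1%, and with 25 or more positions they were 56.3%, 14.2% and 2.17%.

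Against iPSCs, a gain in iPSC-DA neurons was called in 349 of the 355 clusters, beside 33.5% of all clusters, and in mdDA neurons in 0 of 355, beside 6.1% of all clusters. In mdDA neurons 10 of the 355 clusters were called below iPSCs, a share of 2.82% (95% CI 1.54 to 5.11) beside 0.353% of all clusters. Under a limit of 20% in mdDA neurons a gain of 20 points there cannot occur, so the count of 0 was fixed by the rule. The other counts follow in part from its limits, which hold mdDA neurons under 20% and iPSC-DA neurons at 55% or more. Among moderately methylated clusters, under the same limit in mdDA neurons, 0.410% were called below iPSCs.

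By their levels in iPSCs and precursors the 338 clusters fell into 4 sets. In 19 clusters iPSCs were already at 20% or more, and in 17 of them the gain in precursors was called as well. Precursors had a median of 85.5% in this set, iPSC-DA neurons 65.6%, and mdDA neurons 15.4%, so that the median in precursors was above that in iPSC-DA neurons. In 78 clusters the gain was called and precursors had reached 55% or more, with a median of 68.2% in precursors and 62.2% in iPSC-DA neurons. In 120 clusters the gain was called and precursors were under 55%, with medians of 38.0% and 61.4%. In the other 121 clusters, all under 20% in iPSCs, no gain was called. Their medians were 16.5% in precursors and 60.1% in iPSC-DA neurons. The median number of precursor calls per cluster was 264 and 315 in the 2 sets with a called gain and 305 in the set without. In the set without a call the positions were packed more closely, with a median of 13.3 positions per 100 bp against 8.58 in the set that had reached 55%.

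Precursors were at or above iPSC-DA neurons in 63 of the 338 clusters, and more than 10 points above in 40. Precursors were called below iPSC-DA neurons in 201 clusters (59.5%), against 15.2% of all clusters, and above in 11 (3.25%), against 6.44%. The iPSC-DA library is part of the rule, and a high level there favours the first call over the second.

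**Figure D2:**
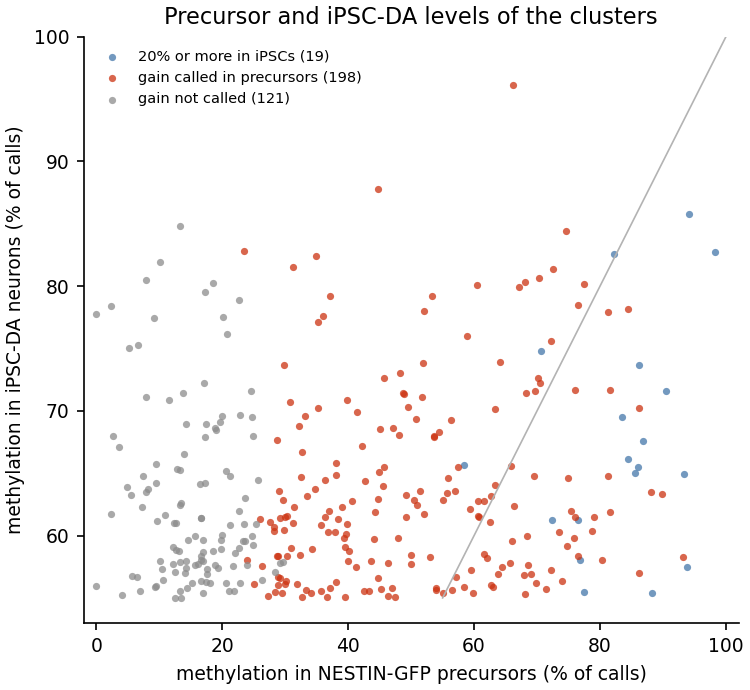
Level in NESTIN-GFP precursors (x axis, percent of calls) against the level in iPSC-DA neurons (y axis, percent of calls, from the limit of 55%) for the 338 clusters with a precursor value, with the line of equal levels. The 19 clusters at 20% or more in iPSCs lie at 58.3% or more in precursors, while the 121 clusters under 20% in iPSCs without a called gain lie at 29.7% or less in precursors and span 55% to 84.8% in iPSC-DA neurons.

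Named clusters show these courses, with positions in the deposited coordinates, whose largest position on chromosome 1 fits mm9. The highest level in iPSC-DA neurons among clusters of 20 or more well-covered positions (10 calls in each DA library) was 87.8% (95% CI 87.0 to 88.6) at chr5:144016425-144016993. This cluster had 52 positions and was at 6.41% in iPSCs, 44.7% in precursors and 19.5% in mdDA neurons, just under the limit. It was the last of 3 strongly hypermethylated clusters in a row. The first, chr5:144014923-144015642, held 115 positions at 3.61% in iPSCs, 20.2% in precursors, 77.5% in iPSC-DA neurons, with 7.84% in mdDA neurons. The middle one, chr5:144015919-144016062, was at 5.82%, 31.2%, 81.6% and 11.4% in the same order. In each of the 4 libraries the level was lowest in the first and highest in the last of the 3 neighbours.

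A second such stretch lay on chromosome 15. The cluster chr15:100883218-100883601 was at 5.04% in iPSCs, 34.9% in precursors, 82.4% in iPSC-DA neurons, with 11.4% in mdDA neurons. Only 124 bp from it lay the largest of the 355 clusters, chr15:100883725-100884817, with 148 positions over 1093 bp. It was at 4.59% in iPSCs, 29.8% in precursors, 73.7% (95% CI 73.1 to 74.3) in iPSC-DA neurons, with 12.0% in mdDA neurons. The next largest, chr10:42741186-42742036 with 110 positions, had 4.43%, 17.4%, 56.3% and 5.01%, and chr17:34808363-34809138 with 96 positions had 7.79%, 26.3%, 56.4% and 11.5%. In both of these the difference between precursors and iPSCs was under 20 points (13.0 and 18.6). Among the clusters with the highest iPSC-DA levels, chr17:23879620-23879775 was at 5.75%, 35.9%, 77.6% and 13.2%, and chr11:101025369-101025837 at 4.83%, 53.4%, 79.2% and 6.17%.

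The highest level in precursors among clusters of this size was 88.2% (95% CI 86.1 to 90.1), at chr17:89191186-89191420. This cluster also had the highest iPSC level among them, 30.9%, and fell to 55.4% in iPSC-DA neurons, with 18.3% in mdDA neurons. Its difference of 57.3 points between precursors and iPSCs was called (Fisher's exact test, adjusted p = 1.62e-190). At chr15:82037623-82037931 the levels in iPSCs, precursors, iPSC-DA and mdDA neurons were 11.0%, 68.2%, 71.4% and 11.7%, so that precursors and iPSC-DA neurons were close. At chr11:74978430-74978919 they were 8.34%, 60.7%, 61.5% and 17.0%, and at chr7:147339193-147339451 they were 9.20%, 57.0%, 63.6% and 9.23%. On chromosome 18, chr18:46625112-46625477 had 6.13%, 58.4%, 55.9% and 10.5%.

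Other clusters were under 10% in both iPSCs and precursors. At chr8:86939551-86939649 precursors had 0 methylated of 216 calls (upper limit 1.75%), iPSCs 3.75%, iPSC-DA neurons 55.98%, and mdDA neurons 7.26%. At chr13:51888850-51889043 the levels in iPSCs, precursors, iPSC-DA and mdDA neurons were 3.58%, 2.31%, 61.7% and 4.84%, with 1167 calls in precursors. At chr7:148108427-148108697 they were 4.91%, 6.53%, 75.3% and 5.88%, with 1316 precursor calls. At chr19:44830875-44831068 they were 8.45%, 5.60%, 56.7% and 5.72%. At chr10:20880974-20881207 they were 3.72%, 9.54%, 64.2% and 4.09%, a gain of 5.83 points in precursors that passed the p threshold (Fisher's exact test, adjusted p = 1.04e-15) but not the minimum of 20 points. High levels in iPSCs occurred in smaller clusters. At chr4:124668486-124668667, with 10 positions, iPSCs were at 74.0%, precursors at 86.1%, iPSC-DA neurons at 73.7% and mdDA neurons at 17.9%, and this cluster was chosen after its values were seen. At chr2:29700893-29701380, a larger one, the levels were 11.9%, 39.8%, 70.9% and 6.36%.

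Of the 355 clusters, 29 (8.17%, 95% CI 5.75 to 11.5) matched a promoter window, which covers 250 bases before and 50 after a start site. Of the moderately methylated clusters 18.8% matched and of the clusters low in both DA libraries 32.8%. Levels given for a gene are those of its whole cluster, which can reach beyond the window. A match needs 10 positions in the window, so size bears on these shares. With 10 to 14 positions they were 8.24%, 9.38% and 18.8%, with 15 to 24 positions 4.90%, 13.9% and 27.4%, and with 25 or more they were 12.7%, 27.6% and 41.3%. Of the 29 matches, 21 had fewer than 18 positions in the window and rest on the chromosome and the distance to a neighbouring match. A cluster that did not match may still lie in a promoter beyond the window or in a sequence that the tables do not hold. In the 29 clusters a gain in precursors was called in 13 of the 27 with a value (48.1%, 95% CI 30.7 to 66.0), and in the others in 202 of 311 (65.0%, 95% CI 59.5 to 70.0). These intervals overlap.

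**Figure D3:**
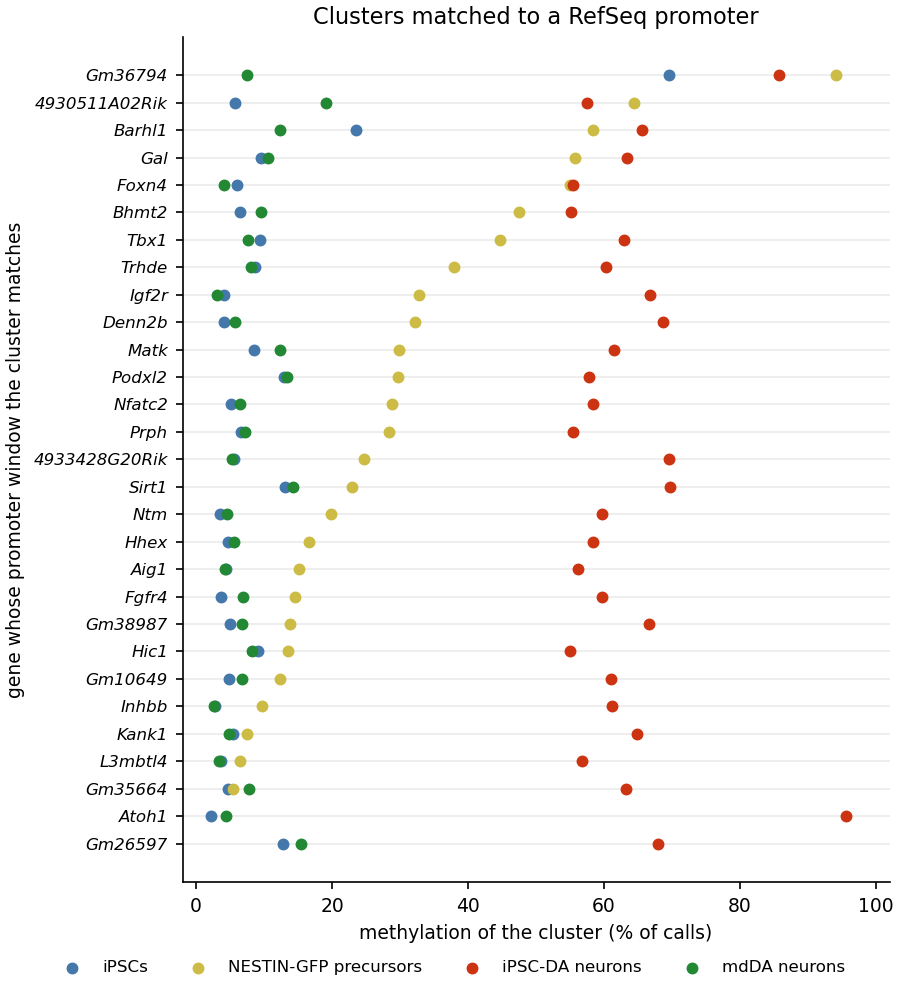
Levels of the 29 clusters matched to a promoter, in percent of calls (x axis), by gene (y axis, ordered by the level in precursors, with the 2 genes without a precursor value at the bottom). Red points, iPSC-DA neurons, lie between 55% and 95.5%, green points, mdDA neurons, between 2.60% and 19.1%, and yellow points, precursors, between 5.49% and 94.1%.

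Transcription factor genes were among the matches. Atoh1, which encodes a basic helix-loop-helix factor needed for hair cells of the inner ear and granule neurons of the cerebellum, had the most methylated of the 29 promoters. Its cluster at chr6:64679061-64679119 was at 95.5% in iPSC-DA neurons, 2.22% in iPSCs and 4.39% in mdDA neurons. Each of its 10 positions was at 87.9% or more in iPSC-DA neurons, while the inner 8 were at 0% in iPSCs and at 1.2% or less in mdDA neurons. Only 2 positions had 5 or more precursor calls, each at 29.4%. Foxn4, which encodes a forkhead factor of retina and spinal cord, was at 6.06% in iPSCs, 55% in precursors (100 calls), 55.4% in iPSC-DA neurons, with 4.03% in mdDA neurons at chr5:114723854-114723983. Tbx1, a T-box factor gene of pharyngeal development, had 9.36%, 44.7%, 62.9% and 7.60% at chr16:18588983-18589076. Barhl1, a homeobox gene of the nervous system and inner ear, was at 23.5% in iPSCs, 58.3% in precursors (36 calls), 65.6% in iPSC-DA neurons, with 12.4% in mdDA neurons. A gain in precursors was called for Foxn4, Tbx1 and Barhl1, and Atoh1 could not be tested. The Foxn4 level in precursors pools unlike stretches. From base -213 to -174 precursors were at 25% to 28.6%, with 7 or 8 calls per position. There iPSC-DA neurons had 23.5% to 68.9%, with 68 to 74 calls. From -98 to -84 precursors were at 45.5% to 100%, with 11 to 18 calls per position. There iPSC-DA neurons had 0% to 76.9%, with 5 to 13 calls. The remaining genes of this kind were chosen after their values were seen. Hhex, a homeobox gene of liver and blood development, had 4.70%, 16.7%, 58.4% and 5.62%. Nfatc2, a factor activated by calcium signalling, had 5.11%, 28.8%, 58.3% and 6.404%. Hic1, a zinc finger repressor gene, had 9.17%, 13.5%, 55% and 8.28%. Of these 3, the gain in precursors was called for Nfatc2 alone.

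Genes of ligands and receptors were also found. Fgfr4, a receptor for fibroblast growth factors, was at 3.71% in iPSCs, 14.6% in precursors, 59.6% in iPSC-DA neurons, with 6.91% in mdDA neurons at chr13:55254002-55254201. The level was not even along the printed stretch. From base -177 to -119 the 8 positions were at 86.7% to 100% in iPSC-DA neurons, with 8 to 30 calls each, and from -105 to +22 the 6 positions were at 22.8% to 51.9%, with 54 to 59 calls each. The next 3 genes were named after their values were seen. Inhbb, which encodes a subunit of activins and inhibins, had 2.77%, 9.62%, 61.2% and 2.60% at chr1:121318892-121318940, and its 13 positions lay between 54% and 69.7% in iPSC-DA neurons. The rise of Inhbb in precursors was under 20 points (Fisher's exact test, adjusted p = 1.60e-11). Gal, the gene of the neuropeptide galanin, had 9.53%, 55.7%, 63.4% and 10.5%, with a called gain in precursors. Igf2r, the imprinted receptor gene whose product clears insulin-like growth factor 2, had 4.03%, 32.7%, 66.7% and 3.03% at chr17:12962566-12962702.

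The Igf2r cluster held the most positions before a start site among the printed sequences and changed along it. At the 12 positions from base -130 to -97, which include the run of neighbouring CpGs, levels in iPSC-DA neurons were 86.5% to 100% and in precursors 20% to 63.6%. Positions -82 and -81 are the C and the G of the next CpG, read on opposite strands. They were at 58.3% (192 calls) and 90% (50 calls) in iPSC-DA neurons. At the positions from -72 to -46, levels were 58.3% to 70.8% in iPSC-DA neurons and 36.1% to 51.4% in precursors. At the 7 positions from -32 to +6, levels were 48.1% to 65.7% in iPSC-DA neurons and 0% to 11.1% in precursors. In mdDA neurons these 7 positions were at 14.02% or less, with 142 to 164 calls each. The 12 upstream positions had 6 to 25 mdDA calls each and were at 8.33% or less there. The steps between these stretches fall where the number of calls changes, as between MspI fragments, and whether fragments of the same cells differ was not tested.

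The other matched genes were of several kinds, and except Sirt1 and Trhde were named after their values were seen. Sirt1, a protein deacetylase gene, was at 13.0% in iPSCs, 22.9% in precursors (118 calls), 69.7% in iPSC-DA neurons, with 14.3% in mdDA neurons. The difference between precursors and iPSCs was 9.85 points. Most Sirt1 positions from base -247 to -211 had only 3 precursor calls and did not enter the precursor level. The difference thus compares partly unlike positions. Trhde, the gene of an enzyme that degrades thyrotropin-releasing hormone, had 8.63%, 37.9%, 60.3% and 8.14%, with a called gain. It was the last of 3 strongly hypermethylated clusters that lay close together, with a moderately methylated one between the first and the next. The others, chr10:114237742-114238065 and chr10:114239026-114239161, were at 59.8% and 55.7% in iPSC-DA neurons, and at 39.4% and 45.2% in precursors. Ntm, a neural cell adhesion gene, had 3.55%, 19.8%, 59.7% and 4.56%. Prph, the gene of the neuronal intermediate filament peripherin, had 6.61%, 28.4%, 55.5% and 7.19%. Kank1, which encodes a regulator of the actin cytoskeleton, had 5.43%, 7.42%, 64.8% and 4.87%, so that its precursors were within 2 points of iPSCs. At the gene model Gm36794 the course differed, with 69.6% in iPSCs, 94.1% in precursors, 85.7% in iPSC-DA neurons, with 7.42% in mdDA neurons. The promoter of 4930511A02Rik was higher in precursors (64.4%) than in iPSC-DA neurons (57.5%), with 5.71% in iPSCs and 19.1% in mdDA neurons.

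The 355 clusters were small. They had a median of 14 positions (10 to 148) over 162 bp (28 to 1093), against 22 positions over 237.5 bp in moderately methylated clusters and 26 positions over 257 bp in clusters low in both. The density was close, with medians of 10.4, 10.4 and 10.7 positions per 100 bp. Among all clusters under 20% in mdDA neurons, the strongly hypermethylated ones made up 4.81% of those with 10 to 14 positions (182 of 3785), 2.42% with 15 to 24, 1.29% with 25 to 39, 0.740% with 40 to 59 and 0.5002% with 60 or more (11 of 2199). Small clusters also had fewer calls, and the part of counting error in this order was not tested.

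All 19 autosomes held some of the 355 clusters. Chromosome 10 held 45, or 5.69% (95% CI 4.28 to 7.53) of its 791 clusters under 20% in mdDA neurons, against 2.07% (310 of 14976) on the other autosomes. Chromosome 15 followed with 4.15% and chromosome 8 with 3.23%, and chromosome 1 had the lowest share, 0.979%. Chromosome 10 also had more calls in the iPSC-DA library, by 0.407 (log2, median ratio of calls per position to mdDA neurons, relative to the autosomes) and by 0.388 relative to iPSCs. On the other autosomes the shift to mdDA neurons ran from -0.122 to 0.136. Its highest values there, 0.124 to 0.136, were on chromosomes 15, 8, 19 and 17, which also had the next highest shares. Chromosome 1 had -0.0404. The order did not hold throughout, with -0.0145 on chromosome 7 (share 2.42%) and 0.0179 on chromosome 16 (1.19%). The part of such differences in calls in the share of clusters was not tested. The 45 clusters on chromosome 10 had medians of 58.2% in iPSC-DA neurons and 29.0% in precursors. Moderately methylated clusters made up 24.1% of the low clusters on chromosome 10 and 31.3% elsewhere, and the median iPSC-DA level of all its low clusters was 7.03% against 7.65%. Without chromosome 10, a setting added once the data had been seen, the 310 remaining clusters had a median of 36.3% in precursors and a called gain in 64.8%.

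**Figure D4:**
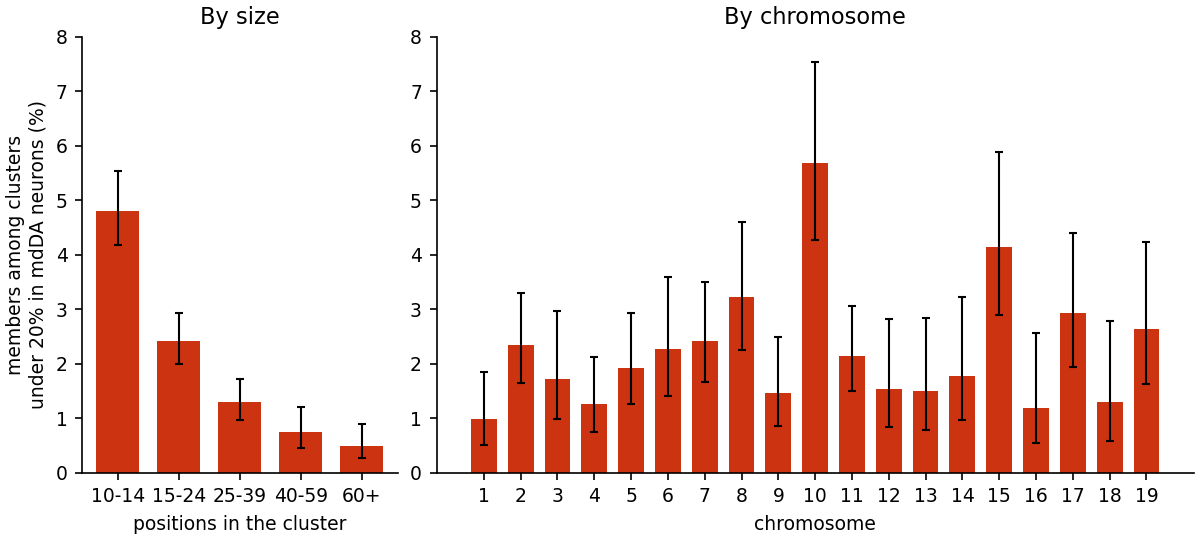
Share of strongly hypermethylated clusters among clusters under 20% in mdDA neurons (y axis, percent, bars from 0) by the number of positions in the cluster (left) and by chromosome (right), with Wilson 95% intervals. The share falls from 4.81% to 0.5002% with size, and chromosome 10 has the highest bar at 5.69%.

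Single positions showed what the cluster level averages. Of the 7084 positions in the 355 clusters, 2.02% were under 20% in iPSC-DA neurons, 7.13% at 20 to 40%, 32.3% at 40 to 60%, 39.6% at 60 to 80% and 18.96% at 80% or more. In precursors 33.8% of 5817 positions were under 20% and 13.5% at 80% or more. In iPSCs 86.8% of positions were under 20%, and in mdDA neurons 82.1%. In both DA libraries, 250 clusters had 10 or more positions of 20 calls each. In these the standard deviation between positions in iPSC-DA neurons had a median of 12.4 points, against 5.12 expected from counting alone. The values were much the same, 12.6 against 5.02, in 4224 moderately methylated clusters with as many such positions. In 155 of these 250 clusters (62.0%) the lowest position in iPSC-DA neurons was above the highest in mdDA neurons, and in 116 (46.4%) every such position was at 40% or more. In the 4224 moderately methylated clusters these shares were 15.03% and 1.28%. Both shares follow in part from the rule, which limits the cluster levels in both DA libraries, so they are a description. Where neighbouring positions could be taken as the strands of 1 CpG, in 1326 pairs, they differed by a median of 9.50 points in iPSC-DA neurons and 2.27 points in mdDA neurons.

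Choosing clusters and measuring them on separate positions gave lower levels by little. When every other position chose 378 clusters, with a median of 61.3% in iPSC-DA neurons, the positions between them had a median of 59.3%. Of these 378, 266 were at 55% or more at the unused positions and 13 under 40%. The difference between iPSC-DA and mdDA neurons there was 20 points or more in 376. These positions come from the same libraries and often the same reads.

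The outermost positions of the 355 clusters had higher levels than the inner ones in iPSCs, precursors and mdDA neurons. The mean over the 710 outermost positions of the 355 clusters was 19.5% in mdDA neurons and 16.5% in iPSCs, against 8.49% and 7.14% over the inner positions. In iPSC-DA neurons the means were 63.7% and 63.3%, and in precursors 52.5% and 37.4%. In clusters low in both DA libraries the outermost and inner means were 15.7% and 5.20% in mdDA neurons. They were 16.5% and 6.00% in iPSC-DA neurons, 18.5% and 7.40% in precursors, and 13.1% and 4.02% in iPSCs. Many outermost positions are at MspI sites, as in the printed sequences, where the end of a fragment is filled in before sequencing, and the part of that step was not tested. When the outermost positions were dropped, a setting also added later, 360 clusters met the rule, of which 330 were among the 355. Their median was 5.86% in iPSCs, 32.8% in precursors, 61.5% in iPSC-DA neurons, with 7.47% in mdDA neurons.

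The nearest other cluster lay at a median of 647 bp, against 1063 bp for moderately methylated clusters and 2394 bp for clusters low in both. Of the 258 clusters with another cluster within 10 kb, the nearest was moderately methylated in 166 (64.3%), strongly hypermethylated in 36, low in both DA libraries in 36 (13.95%) and not low in mdDA neurons in 20. For moderately methylated clusters the nearest was moderately methylated as well in 78.2%, and for clusters low in both it was low in both as well in 89.5%. The nearest neighbours of the 258 clusters had medians of 5.45% in iPSCs, 21.1% in precursors, 44.1% in iPSC-DA neurons, with 6.78% in mdDA neurons. The neighbours of moderately methylated clusters had a median of 37.7% in iPSC-DA neurons. Neighbouring clusters can be parts of a longer island, and an island cannot be told apart from separate ones without the genome of the build. Another of the 355 clusters lay within 10 kb in 55 (15.5%, 95% CI 12.1 to 19.6). These formed 23 pairs and 3 groups of 3, while 300 clusters stood alone. The third group, on chromosome 15 between positions 102186241 and 102193326, was mixed. Its members were at 61.4%, 59.1% and 64.7% in iPSC-DA neurons and at 16.7%, 12.2% and 81.3% in precursors.

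Positions outside all clusters and within 2 kb of the 355 clusters were not used by the rule. In iPSC-DA neurons their mean level was 53.8% at up to 250 bp from the edge, 57.1% at 250 to 500 bp, 59.2% at 500 to 1000 bp and 65.4% at 1000 to 2000 bp. In mdDA neurons the means in the same order were 16.5%, 23.2%, 29.9% and 45.7%, in precursors 50.4%, 55.7%, 59.6% and 70.5%, and in iPSCs 10.8%, 16%, 24.99% and 35.7%. The numbers of positions were 353, 224, 199 and 274, from 196 of the 355 clusters. Around moderately methylated clusters the iPSC-DA and mdDA means were 42.2% and 13.2% at up to 250 bp and 57.98% and 37.7% at 1000 to 2000 bp. Around clusters low in both, iPSC-DA and mdDA neurons were close, with 12.9% and 11.2% at up to 250 bp and 61.0% and 56.6% at 1000 to 2000 bp. Around the 355 clusters the gap between them was 37.3 points at up to 250 bp and 19.7 points at 1000 to 2000 bp, and around moderately methylated clusters it was 29.02 and 20.3 points, so that a raised iPSC-DA level in the flanks was shared by both sets. Around the 355 clusters precursors were within 6 points of iPSC-DA neurons in each distance bin. Around moderately methylated clusters precursors had 44.8% at up to 250 bp and 64.2% at 1000 to 2000 bp. Around clusters low in both, precursors were well above iPSC-DA neurons, at 33.4% and 73.9% in these bins. Inside the 355 clusters the precursor mean was 48.2% at the positions nearest the edges, 42.8% in the next bin and 39.1% at the innermost ones (bins of 20% of the positions). The edge and innermost means were 62.2% and 65.4% in iPSC-DA neurons, 12.2% and 8.40% in iPSCs, and 14.2% and 8.64% in mdDA neurons. The edge bin includes the outermost positions described above. At 50% or more in precursors were 61.0% of the 1050 flank positions around the 355 clusters, 50.3% of those around moderately methylated clusters and 41.0% of those around clusters low in both.

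**Figure D5:**
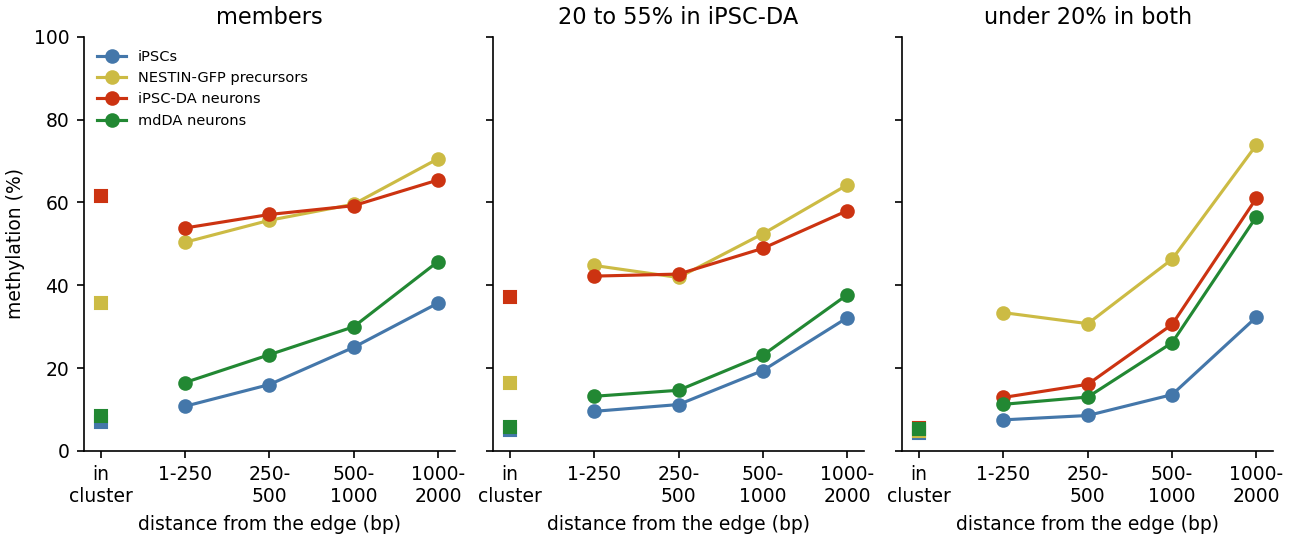
Mean methylation (y axis, percent) of positions outside clusters by distance from the cluster edge (x axis, bp; circles), for the 355 clusters, moderately methylated clusters and clusters low in both DA libraries, with the median level of the clusters themselves as squares. The first distance bin holds positions from 100 bp on, since nearer ones would have joined the cluster. Around the 355 clusters the red line (iPSC-DA neurons) runs from 53.8% to 65.4% and the green line (mdDA neurons) from 16.5% to 45.7%, while around clusters low in both these lines lie close together.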

How the data were processed

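RRBS data of 4 libraries were used, 1 per population. According to the labels and the methods of the study, the authors trimmed reads of 40 bases with Trim Galore 0.3.5, checked them with FastQC, and aligned and called them with Bareback and Bismark 0.10.1. At each cytosine the authors deposited the counts of methylated and unmethylated calls and the percent methylated, without normalization or a filter on coverage. Both strands of a CpG have their own position. The genome build is not given in the sources used here. Positions on chromosome 1 reach 197192264, which fits mm9.

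Here clusters were built as described in the results, and levels were recomputed from the counts. The rule was given together with earlier results of these data, so the clusters, gene lists and comparisons were chosen with those known. Because the rule used both DA libraries, the difference between them was not tested. Other pairs of libraries were compared in every cluster by Fisher's exact test (two-sided) on pooled calls, and p-values were adjusted over all clusters tested (Benjamini-Hochberg).

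Clusters were matched to RefSeq promoters without converting coordinates. A match needed at least 10 positions of a cluster in a window of 300 bases, all on CpGs, on the same chromosome, with the distance to a neighbouring matched cluster kept within 1000 bp. Matches of few positions were often on another chromosome. Of the 355 clusters, 252 had a match of at least 10 positions somewhere, 73 on their own chromosome, and 29 also kept the distance. Of the 29, 8 had at least 18 positions in the window and 21 had fewer, and the placement of these 21 rests on the chromosome and the distance. Of 2425 unique matches of at least 18 positions over all clusters, 2416 (99.6%) were on the chromosome of the cluster. This rule was set after seeing the data. Under the first one, which needed every position in a window and only 1 match, 29 of the 355 clusters matched, 22 of them on another chromosome. Of the other 7, 6 kept the distance (4930511A02Rik, Bhmt2, Fgfr4, Igf2r, L3mbtl4 and Tbx1).

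Clusters named by position were those highest in iPSC-DA neurons (5), highest and lowest in precursors (5 each), highest in iPSCs (3), longest (3) and the 3 largest groups within 10 kb, each with 20 or more positions of 10 calls in each DA library and 100 or more calls in the library ranked. Groups needed neither. Genes named were those of these clusters and those in lists of homeobox, forkhead, T-box and basic helix-loop-helix factors, DA genes, and signalling ligands and receptors. Others are marked in the text. The code was tested on simulated data and ran in Python 3.11.15 with numpy 2.4.6, pandas 2.3.3 and scipy 1.17.1.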

Additional observations from a re-analysis of the deposited data

How the results depend on the processing

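With 1 library per population, no replicate could be left out and no result has a replicate error. No paired analysis was possible because each population has a single library. The number of clusters, 355, was 474 with unweighted means of positions, 457 with at least 1 call, 433 with gaps under 50 bp and 288 with strands merged. It was 211 at 60% or more in iPSC-DA neurons, 680 at 50% or more, 217 with mdDA neurons under 10%, and 107 with at least 20 positions. The share with a called gain in precursors, 63.6%, was 56.4% with at least 10 calls per position, 70.1% with at least 1 call, 55.1% with gaps under 50 bp, 68.8% with gaps under 200 bp, 55.7% from 50% in iPSC-DA neurons, 49.8% with mdDA neurons under 10%, 82.2% for gains of 10 points and 46.7% for gains of 30 points. The share called in iPSC-DA neurons over iPSCs was 100% with at least 20 positions and 99.5% with mdDA neurons under 10%.

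The median in precursors, 35.7%, was 40.8% with 1 call, 28.7% with gaps under 50 bp, 29.0% with at least 20 positions, 29.7% from 50% in iPSC-DA neurons and 25.3% with mdDA neurons under 10%. The median in iPSCs, 6.89%, was 5.86% without the outermost positions, 6.07% and 7.59% with gaps under 50 and 200 bp, 5.99% with at least 20 positions, 5.51% with mdDA neurons under 10% and 6.06% at positions not used to choose the clusters. The median size was 30 positions where at least 20 were needed and 16 from 50% in iPSC-DA neurons. Chromosome 10 held 12.7% of the clusters, 22.4% of those with at least 20 positions and 9.005% of those at 60% or more. The share with another member within 10 kb, 15.5%, was 20.5% with unweighted means of positions, 19.9% with gaps under 50 bp, 7.48% with at least 20 positions, 9.95% and 30.6% from 60% and 50% in iPSC-DA neurons, 8.29% with mdDA neurons under 10%, and 21.7% within 100 kb.

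Flank positions at 50% or more in precursors, 61.0%, were 54.7% with 10 calls, 70.4% with 1 call, 57.5% with unweighted means, 48.3% and 67.4% with gaps under 50 and 200 bp, 46.3% with at least 20 positions, 56.2% from 50% in iPSC-DA neurons, 53.6% with mdDA neurons under 10%, 56.3% with clusters chosen at alternate positions and 57.3% within 1 kb. Single positions at 40 to 60% in iPSC-DA neurons, 32.3%, were 28.7% with 1 call, 33.6% with strands merged, 34.1% with unweighted means, 34.2% with gaps under 200 bp, 33.8% with at least 20 positions, 23.1% and 41.6% from 60% and 50% in iPSC-DA neurons, 35.4% with mdDA neurons under 10% and 35.8% at alternate positions. The cause of these shifts was not tested. Another 90 values lay within the interval of the value reported or, for numbers of clusters, within 1.5 times it. The shallow precursor library limits single positions most, with a median of 14 calls.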
